A study of Arabidopsis thaliana with 12 samples.

Results

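The genes described here have array probes detected only in callus of Arabidopsis thaliana induced with 2,4-D, a synthetic auxin and herbicide. They comprise 57 such probes of 56 loci, out of 26236 probes with a locus code (25665 loci). AT5G62890 and AT3G24240 each have another probe that was detected in other groups as well. A probe was counted when the scanner software flagged it as well above background on all 3 arrays of 2,4-D-induced callus and on none of the 9 other arrays. These flags chose the genes, so the levels below describe the choice and carry no test. Probes differ in brightness, so a signal does not rank one gene's transcript level against another's.

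RNA of 12 samples, 3 in each of 4 groups, was hybridised to one-colour arrays. The groups were wild-type callus induced and kept on 500 µg/L 2,4-D, untreated callus-like tissue of 35S:WIND1 plants, in which a constitutive promoter drives WIND1, wild-type callus of the T87 cell line kept on 500 nM NAA, also a synthetic auxin, and untreated wild-type seedlings aged 14 days. All are labelled Col-0 and grew on solid MS medium. WIND1 is a transcription factor that promotes callus at wounds. The 35S promoter is active in most plant tissues, so WIND1 is not limited to wounded cells here. T87 is 1 established line, and its 3 arrays sample that line. Each array is a separate plant or callus per the labels. RNA came from whole calli or seedlings, so fewer cells of a type and less RNA per cell cannot be told apart.

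In Arabidopsis, callus on auxin-rich medium is known to form through a programme that resembles the start of a lateral root. Auxin releases ARF activators from their Aux/IAA repressors, and these activators switch on LBD transcription factors. WOX11, a homeobox factor, is known to act early when detached leaves form roots, ahead of LBD genes. GH3 enzymes join auxin to amino acids and so lower its free level.

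Levels are log2 processed signals from which the 75th percentile of the same array was subtracted, so that 0 is that percentile. The signal at that percentile lay between 1755 and 3716 units. Across the arrays, 57.1% to 65.9% of spots were well above background. The lowest share, 57.1%, was that of 2,4-D-induced callus replicate 2, against 63.3% and 64.2% on the other arrays of its group. On that array the lowest signal flagged as well above background was 40.6 units, against 25.1 and 27.8 units on replicates 1 and 3. The count of probes was 94 without that array. With any other 1 of the 12 arrays left out it was 58 to 68.

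The 57 probes are 0.217% of all probes with a locus code. The same rule found 46 probes (0.175%) for 35S:WIND1 callus, 234 probes (0.892%) for T87 callus, and 244 probes (0.93%) for seedlings. The set of 2,4-D-induced callus was therefore larger than that of 35S:WIND1 callus and smaller than the others, as a count with no test.

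**Figure D1:**
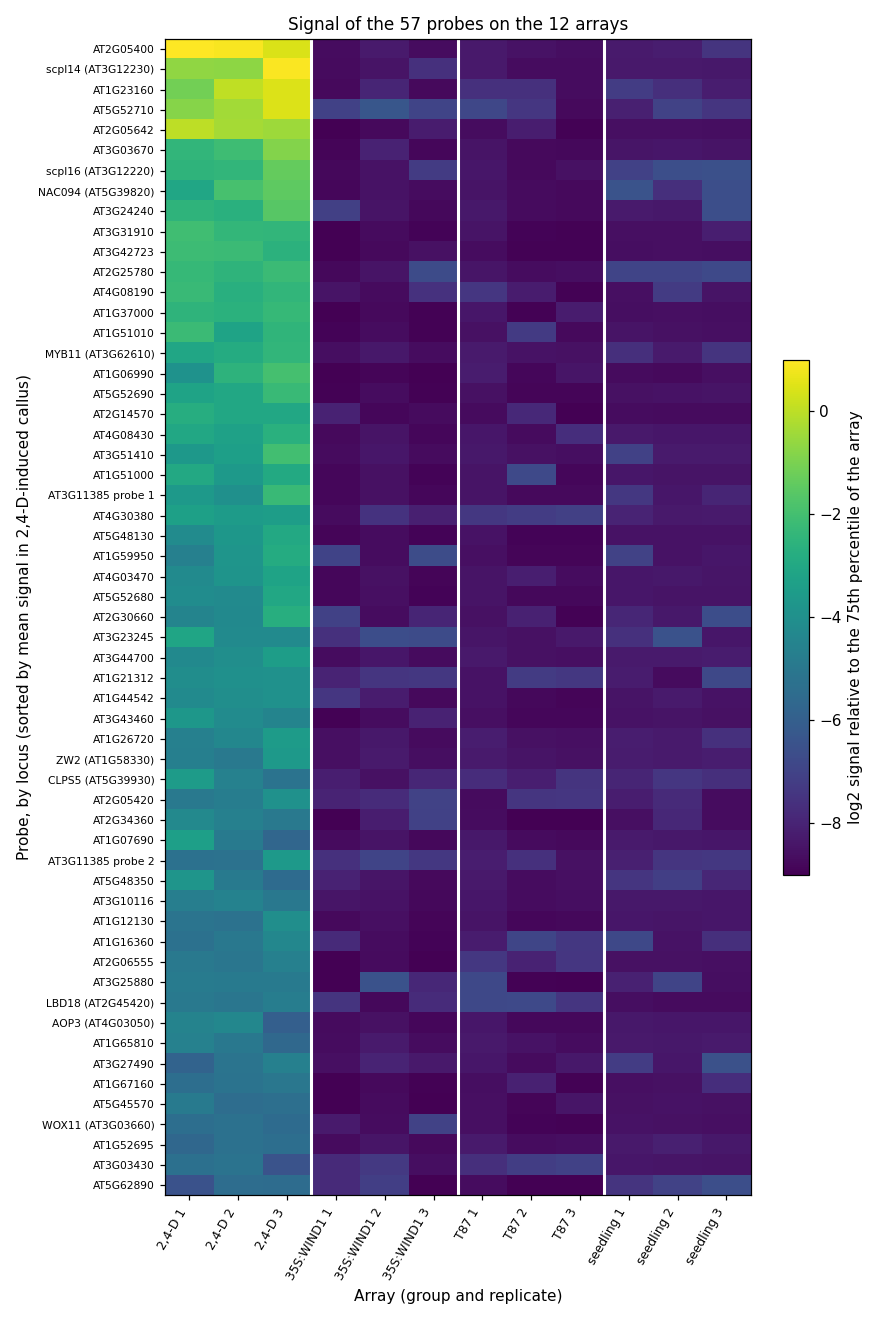
Signal of the 57 probes (rows, by locus, sorted by their mean in 2,4-D-induced callus) on the 12 arrays (columns, by group and replicate). Colour is the log2 signal minus that of the array's 75th percentile. The 3 columns of 2,4-D-induced callus hold means between -5.78 and 0.77, and the 9 other columns lie at the dark end of the scale in every row.

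On the arrays of 2,4-D-induced callus the means of the 57 probes lay between -5.78 and 0.77, with a median of -3.83. The lowest array of 2,4-D-induced callus was above the highest of the 9 others for all 57 probes. Of all 25775 probes with a locus code and a value on every array, 13.1% showed that lack of overlap. The rule used this contrast, so nothing is read from the difference.

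A probe not well above background in a group has only an upper limit there, and its fold is given as a lower bound. The bound divides the mean of 2,4-D-induced callus by the mean limit of the other group. That limit is, for each array, the dimmest signal flagged as well above background, or the signal of the probe itself where that is brighter. The median bound was at least 7.16-fold over 35S:WIND1 callus, at least 7.06-fold over T87 callus and at least 5.9-fold over control seedlings. The smallest bounds were 1.85-fold, 1.83-fold and 1.53-fold over the same groups. With normexp background correction the median measured log2 difference was 0.89 over 35S:WIND1 callus, 1.18 over T87 callus and 0.47 over control seedlings, against 4.42, 4.64 and 4.35 as processed. At least 10-fold over every other group was reached by 21 probes, and at least 2-fold by 54. In the limma fit over all genes, 54 of the probes stood for their gene, and all 54 were called higher in each comparison. Of all genes tested, 11.7% were called higher over 35S:WIND1 callus, 19.2% over T87 callus and 18.6% over control seedlings. The rule used these comparisons too.

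Slide and replicate number coincide: each slide held 1 array of every group. Within slides 1, 2 and 3 the median bound on the log2 scale was 2.9, 2.46 and 3.27 over 35S:WIND1 callus. It was 2.53, 2.68 and 3.35 over T87 callus, and 2.48, 2.34 and 2.96 over control seedlings. Each group kept the same position on every slide, so position and group cannot be told apart.

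**Figure D2:**
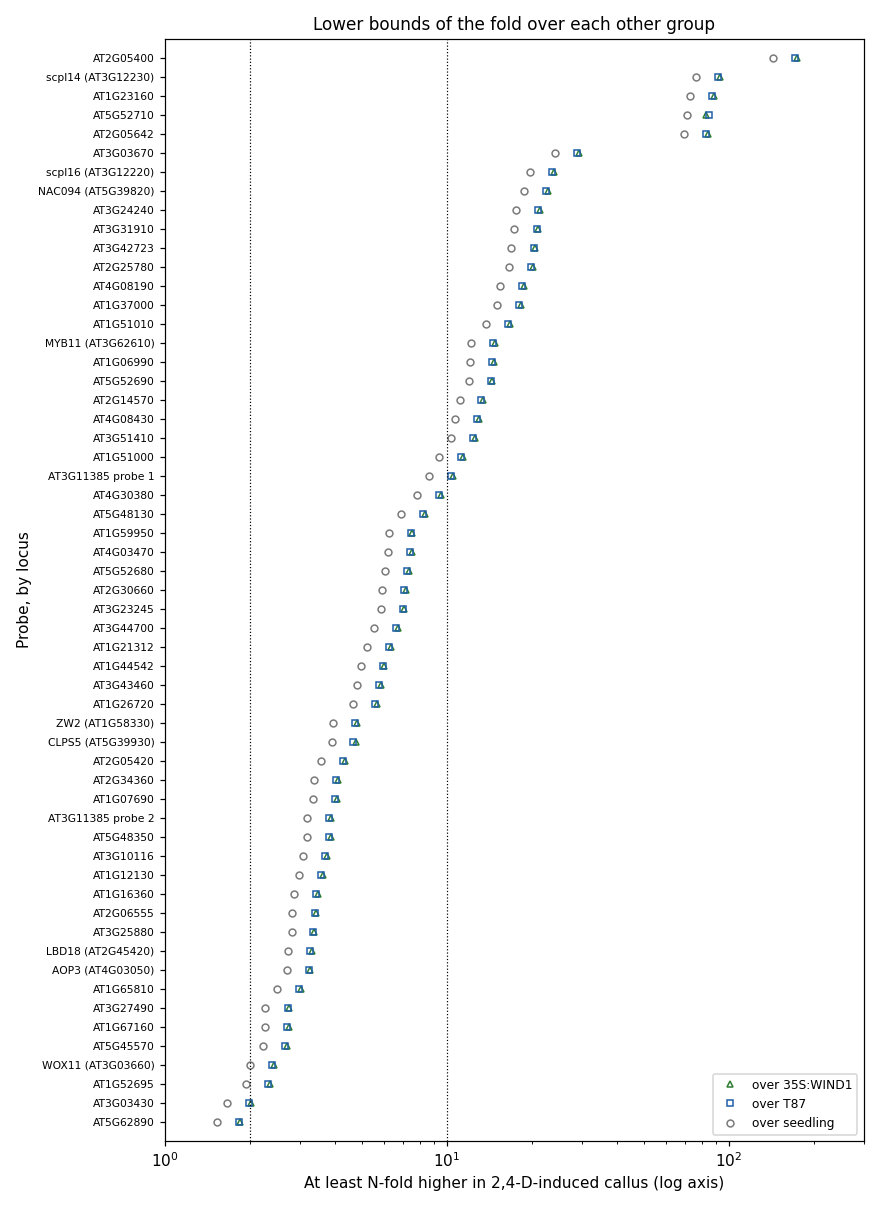
Lower bound of the fold of 2,4-D-induced callus over each other group (x axis, log scale) for the 57 probes (rows, by locus). Triangles stand for 35S:WIND1 callus, squares for T87 callus and circles for control seedlings, and dotted lines mark 2-fold and 10-fold. AT2G05400 has the largest bounds, at least 143-fold over every other group, and AT5G62890 the smallest.

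Transcription factors come first among the genes with a symbol. WOX11 (AT3G03660), the homeobox factor of root founder cells, had log2 signals of -5.39, -5.27 and -5.50 in 2,4-D-induced callus. It had -8.26, -8.68 and -7.02 in 35S:WIND1 callus, -8.59, -8.90 and -8.94 in T87 callus, and -8.53, -8.55 and -8.58 in control seedlings. 2,4-D-induced callus lay above all other arrays, and its 3 arrays were close together (SD 0.11, n = 3). The signal was at least 2.43-fold higher than in 35S:WIND1 callus, at least 2.4-fold higher than in T87 callus and at least 2-fold higher than in control seedlings. These bounds are among the smallest of the set.

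LBD18 (AT2G45420), an LBD factor that promotes lateral root formation downstream of auxin, had log2 signals of -4.97, -5.06 and -4.78 in 2,4-D-induced callus. It had -7.48, -8.79 and -7.76 in 35S:WIND1 callus, -6.83, -6.80 and -7.45 in T87 callus, and -8.63, -8.70 and -8.69 in control seedlings. The arrays of 2,4-D-induced callus lay above all others, and the nearest array was one of T87 callus. The bounds were at least 3.33-fold, 3.27-fold and 2.74-fold over 35S:WIND1 callus, T87 callus and control seedlings.

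MYB11 (AT3G62610) is a MYB factor that switches on flavonol synthesis. Its log2 signals were -3.08, -2.86 and -2.40 in 2,4-D-induced callus, against -8.64, -8.34 and -8.65 in 35S:WIND1 callus, -8.29, -8.52 and -8.56 in T87 callus, and -7.67, -8.27 and -7.50 in control seedlings. No group came within 4.42 log2 units of the lowest array of 2,4-D-induced callus, and the bounds were at least 14.8-fold, 14.6-fold and 12.2-fold in the same order. MYB12 (AT2G47460), its close relative with the same known targets, was detected more widely and was looked up after the values were seen. MYB12 had log2 signals of -2.17, -2.55 and -1.76 in 2,4-D-induced callus, -3.20, -2.39 and -4.49 in 35S:WIND1 callus, -8.38, -4.21 and -7.70 in T87 callus, and -2.21, -2.57 and -2.48 in control seedlings. The limma test called it higher than in T87 callus (log2 change 4.6 ± 0.93 SE, adjusted p = 0.00158). Over 35S:WIND1 callus (log2 change 1.2 ± 0.93 SE, adjusted p = 0.311) and control seedlings (0.26 ± 0.93 SE, adjusted p = 0.821) it was not called.

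NAC094 (AT5G39820) belongs to the NAC transcription factors. Its log2 signals were -3.10, -1.91 and -1.47 in 2,4-D-induced callus, -8.82, -8.53 and -8.68 in 35S:WIND1 callus, -8.46, -8.72 and -8.73 in T87 callus, and -6.46, -7.65 and -6.60 in control seedlings. Seedlings were the nearest group, and did not overlap with 2,4-D-induced callus. The bounds were at least 22.8-fold, 22.4-fold and 18.7-fold over 35S:WIND1 callus, T87 callus and control seedlings.

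**Figure D3:**
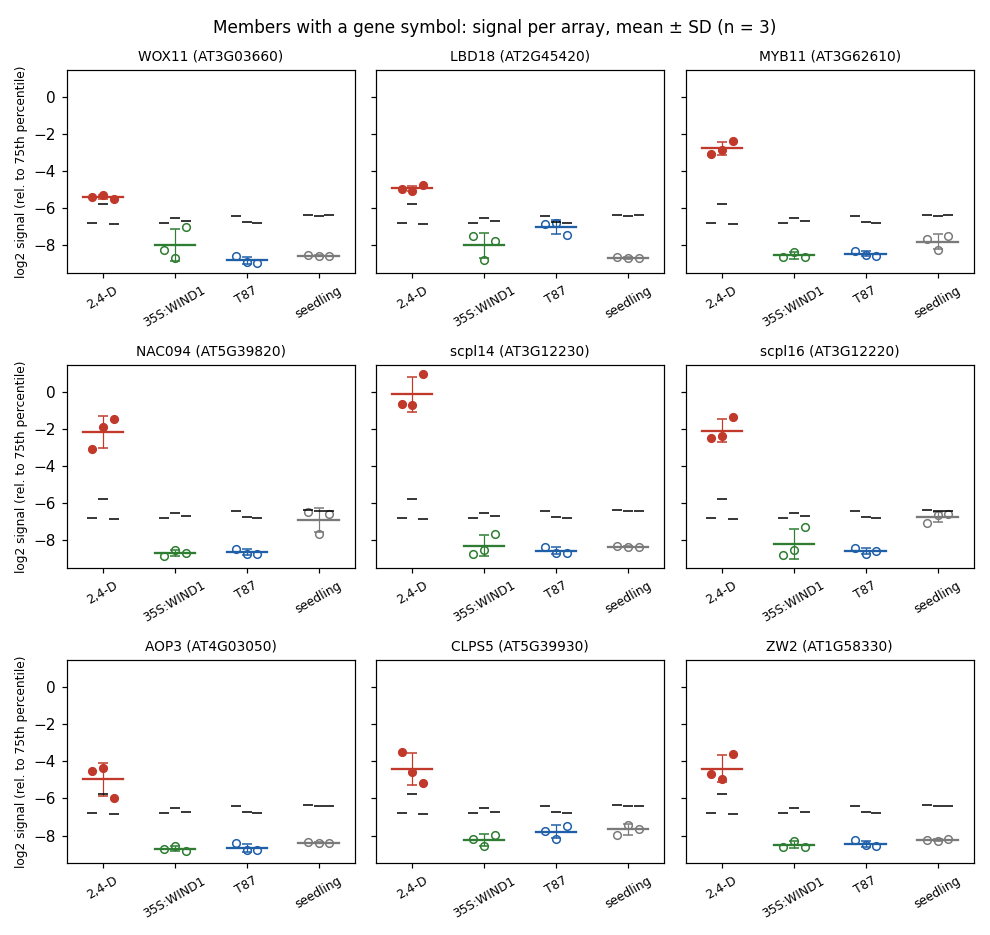
Log2 signal minus that of the array's 75th percentile (y axis) for the 9 genes with a symbol, 1 panel each, in the 4 groups (x axis). Points are arrays, horizontal lines are means with SD (n = 3), and black dashes mark the lowest signal well above background on each array. Only the filled points of 2,4-D-induced callus stand above their dashes by the detection rule, by little for WOX11 and by several log2 units for scpl14.

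Genes of secondary metabolism and of the cell wall follow. The serine carboxypeptidase-like family includes enzymes that move acyl groups between plant metabolites. scpl14 (AT3G12230) had log2 signals of -0.65, -0.70 and 0.95 in 2,4-D-induced callus, -8.71, -8.49 and -7.63 in 35S:WIND1 callus, -8.33, -8.68 and -8.66 in T87 callus, and -8.31, -8.33 and -8.36 in control seedlings. Its bounds of at least 92.9-fold, 91.5-fold and 76.4-fold over these groups were the second largest of the set. Replicate 3 of 2,4-D-induced callus was the highest array.

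scpl16 (AT3G12220), its neighbour in the gene order, had log2 signals of -2.48, -2.40 and -1.38 in 2,4-D-induced callus. The other groups had -8.77, -8.50 and -7.28 in 35S:WIND1 callus, -8.39, -8.73 and -8.57 in T87 callus, and -7.06, -6.61 and -6.57 in control seedlings. The bounds were at least 24-fold, 23.6-fold and 19.7-fold. Both genes were highest on the same array of 2,4-D-induced callus.

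Neighbouring genes of this family, chosen after their values were seen, had other patterns. scpl17 (AT3G12203) was well above background on no array of 2,4-D-induced callus or 35S:WIND1 callus, on all 3 of T87 callus and on 1 of control seedlings. It was at least 8.13-fold lower in 2,4-D-induced callus than in T87 callus. It entered the limma fit only through T87 callus, so this value carries no test. SCPL15 (AT3G12240) was well above background on 1 array in all, of a control seedling.

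AOP3 (AT4G03050) is a dioxygenase that modifies the side chain of glucosinolates, the defence compounds of the cabbage family. Its log2 signals were -4.54, -4.36 and -5.98 in 2,4-D-induced callus, -8.71, -8.55 and -8.82 in 35S:WIND1 callus, -8.40, -8.77 and -8.77 in T87 callus, and -8.34, -8.39 and -8.39 in control seedlings. The arrays of 2,4-D-induced callus lay above all others, and the bounds were at least 3.28-fold, 3.23-fold and 2.7-fold. Its neighbours AOP2 and AOP1, enzymes of the same family looked up after the values were seen, were lower in 2,4-D-induced callus than in control seedlings and 35S:WIND1 callus. AOP2 (AT4G03060) averaged -7.06 ± 0.78 in 2,4-D-induced callus and -1.54 ± 0.72 in 35S:WIND1 callus. In T87 callus it averaged -8.31 ± 0.38, and in control seedlings 0.92 ± 0.39 (log2 signal, SD, n = 3 each). It was called lower than in control seedlings (log2 change -7.98 ± 0.45 SE, adjusted p = 2.74e-07) and than in 35S:WIND1 callus (-5.52 ± 0.45 SE, adjusted p = 8.1e-06) by limma. Over T87 callus the change was 1.25 ± 0.45 SE (adjusted p = 0.0327), at signals of which 1 of 6 was well above background. AOP1 (AT4G03070) fell by 6.4 ± 0.37 SE on the log2 scale relative to control seedlings (limma, adjusted p = 3.21e-07).

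AT4G30380, listed in the reference table as an expansin-like B2 precursor (EXLB2) of a family related to wall-loosening proteins, had log2 signals of -3.30, -3.52 and -3.44 in 2,4-D-induced callus. Its signals were -8.72, -7.53 and -8.12 in 35S:WIND1 callus, -7.37, -7.23 and -7.12 in T87 callus, and -8.01, -8.31 and -8.29 in control seedlings. T87 callus was the nearest group, and the bounds were at least 9.51-fold, 9.36-fold and 7.83-fold.

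CLPS5 (AT5G39930) is listed as similar to CLP1, a factor of messenger RNA 3′ end formation. Its log2 signals were -3.50, -4.59 and -5.19 in 2,4-D-induced callus, -8.17, -8.57 and -7.94 in 35S:WIND1 callus, -7.73, -8.17 and -7.49 in T87 callus, and -7.95, -7.41 and -7.65 in control seedlings. ZW2 (AT1G58330) had -4.69, -4.95 and -3.59 in 2,4-D-induced callus, -8.60, -8.28 and -8.61 in 35S:WIND1 callus, -8.26, -8.49 and -8.57 in T87 callus, and -8.24, -8.29 and -8.18 in control seedlings. The bounds over 35S:WIND1 callus, T87 callus and control seedlings were 4.74-fold, 4.66-fold and 3.9-fold for CLPS5 and 4.8-fold, 4.72-fold and 3.95-fold for ZW2. CLPS5 was highest on replicate 1 and ZW2 on replicate 3.

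Of the 5 largest bounds, 4 belong to loci without a symbol in the reference table. AT2G05400 had log2 signals of 0.97, 0.90 and 0.43 in 2,4-D-induced callus, -8.65, -8.27 and -8.67 in 35S:WIND1 callus, -8.30, -8.50 and -8.64 in T87 callus, and -8.29, -8.18 and -7.49 in control seedlings. Its bounds were at least 174-fold, 171-fold and 143-fold.

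AT1G23160 had log2 signals of -1.11, 0.06 and 0.46 in 2,4-D-induced callus, and at most -7.23 on any other array. Its bounds were at least 88.8-fold, 87.4-fold and 73-fold over 35S:WIND1 callus, T87 callus and control seedlings. AT5G52710 had -0.81, -0.38 and 0.46 in 2,4-D-induced callus and at most -6.34 elsewhere, with bounds of at least 82.8-fold, 84.9-fold and 70.9-fold. AT2G05642 had -0.01, -0.35 and -0.45 in 2,4-D-induced callus and at most -8.18 elsewhere, with bounds of at least 84.4-fold, 83.1-fold and 69.5-fold. In all 4 loci the gap between 2,4-D-induced callus and the nearest other array was 5.53 log2 units or more.

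Of the 56 loci, 55 were found in the reference table, which is of assembly TAIR10.1, and 9 have a symbol (16.4%). The share was 30.4% for loci detected only in 35S:WIND1 callus, 21.2% for loci of T87 callus only, 37.2% for loci of control seedlings only and 40% for all loci on the array. Pseudogenes made up 3.64% of the set (2 loci, AT2G14570 and AT3G43460). Their share was 2.17% for loci of 35S:WIND1 callus only, 3.46% for T87 callus only, 0.826% for control seedlings only and 1.23% for all loci. The median gene length was 2224 bases, against 1424, 1610 and 1671 bases for the same 3 sets and 2174 bases over all loci. The share with a symbol was the lowest and the median length the highest of these sets, and the pseudogene share was close to that of T87 callus. None of these differences was tested.

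In the order of the reference table, 11 of the 55 loci (20%) lay at most 3 loci from another of the set. The share was 0 of 46 loci for 35S:WIND1 callus, 33 of 231 (14.3%) for T87 callus and 31 of 242 (12.8%) for control seedlings. This share depends on the number of loci in a set, and was 99.2% for all loci on the array. The differences between the sets were not tested. The 11 loci form 4 pairs and 1 run of 3. The pairs are AT1G51000 with AT1G51010, AT2G05400 with AT2G05420, WOX11 with AT3G03670, and scpl16 with scpl14. Neighbours of near-identical sequence could bind the same probe, and no probe sequence was at hand to check this.

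The run of 3 is AT5G52680, AT5G52690 and AT5G52710, with AT5G52700 between them. AT5G52680 had log2 signals of -4.15, -4.22 and -3.01 in 2,4-D-induced callus and at most -8.39 elsewhere. AT5G52690 had -3.19, -3.01 and -2.23 in 2,4-D-induced callus and at most -8.47 elsewhere. All 3 genes were highest on replicate 3. AT5G52700 was well above background on no array. The genes at both ends of the run were also higher in 2,4-D-induced callus, and were looked at because of their place. AT5G52670 was at least 8.8-fold higher than in 35S:WIND1 callus, with log2 changes of 3.98 over T87 callus and 3.02 over control seedlings. It entered the fit only through 2,4-D-induced callus, so these values carry no test. AT5G52720 was called higher by limma than in 35S:WIND1 callus (log2 change 3.79, adjusted p = 0.000423), T87 callus (6.26, adjusted p = 7.91e-06) and control seedlings (at least 26.7-fold, adjusted p = 1.99e-05). Both passed the detection flag on every array of 2,4-D-induced callus, AT5G52670 also on 2 other arrays and AT5G52720 on 4 others.

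The other members of the pairs followed the set. AT3G03670, beside WOX11, had log2 signals of -2.42, -2.12 and -0.85 in 2,4-D-induced callus and at most -8.03 elsewhere. AT1G51010 had -2.18, -3.18 and -2.46 and AT1G51000 had -2.95, -3.62 and -2.92 in 2,4-D-induced callus, with at most -7.32 and -6.79 elsewhere. Both of the last genes were lowest on replicate 2. AT2G05420 had -4.95, -4.77 and -3.94 in 2,4-D-induced callus and at most -7.03 elsewhere.

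The rule works by probe, and other probes limit the label for 2 loci. AT5G62890 has another probe that was well above background on all 12 arrays, with log2 signals of 1.76 ± 0.38 in 2,4-D-induced callus and 1.18 ± 0.35 in 35S:WIND1 callus (SD, n = 3 each). They were -1.19 ± 0.18 for T87 callus and 1.24 ± 0.05 for control seedlings. The gene was thus detected in every group, and its member probe was the one nearest the threshold. AT3G24240 has another probe with 2.49 ± 0.19 in 2,4-D-induced callus and -5.22 ± 0.50 in 35S:WIND1 callus, with -7.07 ± 1.12 for T87 callus and -1.52 ± 0.41 for control seedlings. That probe passed the detection flag on 1 array of T87 callus and on every array of the 3 other groups. By both of its probes the gene was highest in 2,4-D-induced callus, but it was not detected there alone. AT3G11385 has 2 member probes, both highest on replicate 3 of 2,4-D-induced callus, with bounds of at least 8.64-fold and 3.2-fold over every other group. Without the first 2 loci, a choice made after seeing the data, 55 probes were counted.

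The threshold separated genes that differ little. The 3 members whose lowest array of 2,4-D-induced callus was nearest the highest other array were AT5G62890, AT3G03430 and AT3G27490, with gaps of 0.13, 0.63 and 0.69 log2 units. Just outside were 35 probes well above background on all 3 arrays of 2,4-D-induced callus and on 1 other array, which was of 35S:WIND1 callus for 14, of T87 callus for 13 and of control seedlings for 8.

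Among them was RGF8 (AT2G03830), of the family of root meristem growth factor peptides. It had log2 signals of -0.80, -0.80 and -0.60 in 2,4-D-induced callus, -8.64, -8.84 and -8.89 in 35S:WIND1 callus, -8.04, -8.62 and -9.08 in T87 callus, and -6.59, -6.93 and -3.22 in control seedlings. A single seedling array kept it out of the set. Also among them were AT4G09940, which had 0.01, -1.0 and -2.0 in 2,4-D-induced callus and was detected on 1 array of 35S:WIND1 callus, and AT1G37080, which averaged -1.03 and was detected on 1 seedling array. RGF1 and LBD33 are also among the 35. A further 49 probes were well above background on 2 of the 3 arrays of 2,4-D-induced callus and on no other, and for 37 of them the array missed was replicate 2.

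A second flag of the scanner software marks a spot as positive and significant against its local background, which is a weaker demand. On the 9 arrays outside 2,4-D-induced callus this flag was set for 176 of 513 pairs of a member probe and an array. It was set for 61 of 171 in 35S:WIND1 callus, 52 of 171 in T87 callus and 63 of 171 in control seedlings. Only 9 probes had it on no other array, among them AOP3 and ZW2, while CLPS5 and AT5G52710 had it on 8. Not detected here therefore means below the stricter flag, not absent.

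Members varied more among the 3 arrays of 2,4-D-induced callus than genes in general. Their SD over these arrays ranged from 0.05 to 1.19, with a median of 0.51. The median over all genes tested was 0.2, and 0.32 over 2430 other genes detected in this callus with a mean between -4.77 and -2.6, the quartiles of the members. The largest SDs were those of AT1G07690 with 1.19, AT1G06990 with 0.99, and AT3G11385 (second probe) and AT2G30660, both with 0.97. AT1G07690 had -3.35, -4.90 and -5.69 on the 3 arrays, and AT1G06990 had -3.89, -2.53 and -1.96, so the arrays did not rank alike in both.

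Replicate 3 was the highest array for 34 of the 57 probes (59.6%), replicate 1 for 17 (29.8%) and replicate 2 for 6 (10.5%). Over all genes tested these shares were 41.7%, 35% and 23.3%. Between replicates 3 and 1, 21 probes (36.8%) were at least 2-fold higher on replicate 3 and 7 (12.3%) at least 2-fold lower. Among the other genes of like level, 10.6% were at least 2-fold higher and 9.26% at least 2-fold lower. scpl14, scpl16 and NAC094 were among those higher on replicate 3, and AOP3 and CLPS5 among those lower. Leaf photosynthesis markers ran the other way for 5 of 6 genes, which were lowest on replicate 3. Over all genes tested, 5.96% were at least 2-fold lower on replicate 3 than on replicate 1. On replicates 1, 2 and 3, RBCS1A had log2 signals of 2.46, 2.48 and 0.69, LHCB1.1 had 0.11, 0.01 and -1.27, and PSAD1 had 1.38, 1.32 and 0.19. PSBO1 had 3.35, 3.33 and 2.12, and RCA had 1.46, 1.35 and 0.01, while CA1 had -7.31, -5.06 and -6.19. The part of these markers in the members' levels was not tested.

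**Figure D4:**
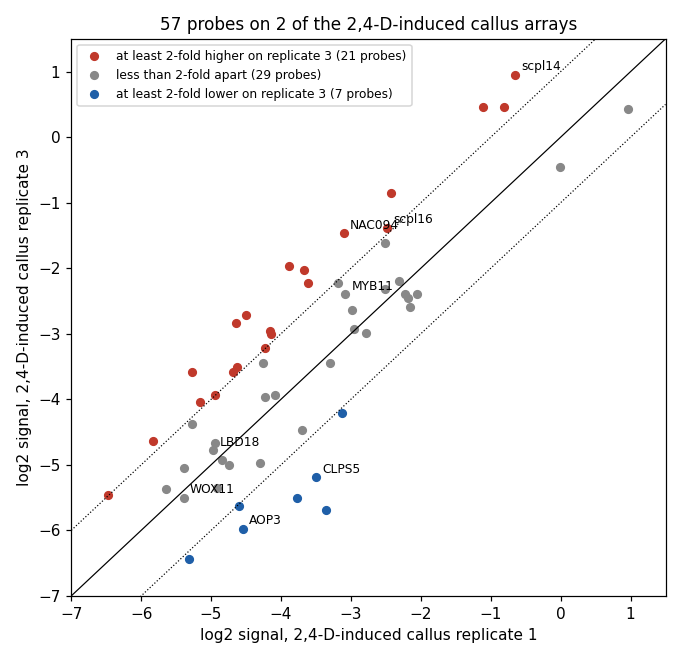
Log2 signal of the 57 probes on replicate 3 (y axis) against replicate 1 (x axis) of 2,4-D-induced callus, with the line of equality and dotted lines at 2-fold. Red points (21 probes) are at least 2-fold higher on replicate 3, blue points (7 probes) at least 2-fold lower, and grey points lie between. WOX11 and LBD18 lie near the line.

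The pathways around WOX11 and LBD18 were read from fixed lists, with the members left out of the counts. These genes were not chosen by the detection rule. A gene was called by limma when its adjusted p was below 0.05 and it differed 2-fold or more. LBD29, LBD33 and RGF1 entered the fit only because all 3 arrays of 2,4-D-induced callus detected them. Their calls, counted below, follow in part from that filter and are no separate support. Of the 4 other LBD factors tested, 3 were called higher than in control seedlings, 4 than in 35S:WIND1 callus and 3 than in T87 callus, and none was called lower. Their median log2 change was 4.07 over 35S:WIND1 callus and 3.71 over T87 callus, against 0.07 and 0.05 for all genes tested. Of all genes tested, 24.2% were called lower than in control seedlings, 16.8% than in 35S:WIND1 callus and 19.7% than in T87 callus. The shares called higher were 18.6%, 11.7% and 19.2% in the same order.

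LBD16 (AT2G42430), which acts in the first divisions of lateral root founder cells, was higher in 2,4-D-induced callus than in control seedlings (log2 change 4.1 ± 0.36 SE, adjusted p = 5.66e-06) and 35S:WIND1 callus (4.73 ± 0.36 SE, adjusted p = 5.89e-06). Over T87 callus its change was 0.35 ± 0.36 SE (adjusted p = 0.429). LBD17 (AT2G42440) was at least 27.8-fold higher than in 35S:WIND1 callus (adjusted p = 3.14e-07) and at least 27.4-fold higher than in T87 callus (adjusted p = 9e-08) by limma. LBD29 (AT3G58190) was at least 2.35-fold and 2.31-fold higher than in these groups, and its change over control seedlings was 1.1 ± 0.51 SE (adjusted p = 0.0816). LBD33 (AT5G06080) was at least 3.93-fold higher than in control seedlings, as a description with no test. LBD14 was well above background on no array. With another background correction (normexp), LBD calls fell to 1, 1 and 0 over control seedlings, 35S:WIND1 callus and T87 callus.

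Of 18 root stem cell and lateral root factors beside WOX11, 15 were called higher than in control seedlings, 12 than in 35S:WIND1 callus and 17 than in T87 callus, and none lower. Among all genes tested, 18.6%, 11.7% and 19.2% were called higher in the same order. WOX12 (AT5G17810), the close relative of WOX11 that acts with it, had log2 signals of 0.78, 0.75 and 0.71 in 2,4-D-induced callus. Its mean was -3.17 in 35S:WIND1 callus. T87 callus had a mean of -4.32 and control seedlings one of -3.79. Every one of the 12 arrays detected it, 1 seedling array through a spot marked as an outlier. Its log2 changes were 3.91 ± 0.38 SE over 35S:WIND1 callus (adjusted p = 4.66e-05), 5.06 ± 0.38 SE over T87 callus (adjusted p = 4.66e-06) and 4.54 ± 0.43 SE over control seedlings (adjusted p = 1.64e-05), the last with 1 seedling array dropped as an outlier spot.

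WOX5 (AT3G11260), a factor of the root quiescent centre, was higher than in control seedlings by a log2 change of 5.64 ± 0.64 SE (adjusted p = 3.12e-05). The PLETHORA factors maintain root stem cells. PLT1 (AT3G20840) was at least 122-fold and PLT2 (AT1G51190) at least 218-fold higher than in 35S:WIND1 callus (limma, adjusted p = 1.44e-08 and 1.96e-07). BBM (AT5G17430), of the same family, was higher than in control seedlings by 5.64 ± 0.58 SE (adjusted p = 1.59e-05). PUCHI (AT5G18560), a lateral root factor, was at least 211-fold higher than in 35S:WIND1 callus (adjusted p = 1.09e-07) and at least 208-fold higher than in T87 callus (adjusted p = 3.62e-08). PLT5 and PLT7 did not pass the test over 35S:WIND1 callus, with log2 changes of -0.54 and -0.46 (adjusted p = 0.433 and 0.103). With normexp the calls were 7, 6 and 12 over control seedlings, 35S:WIND1 callus and T87 callus. With single arrays left out, 13 to 15 were called over control seedlings, SHR and RGF3 being among the calls lost.

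**Figure D5:**
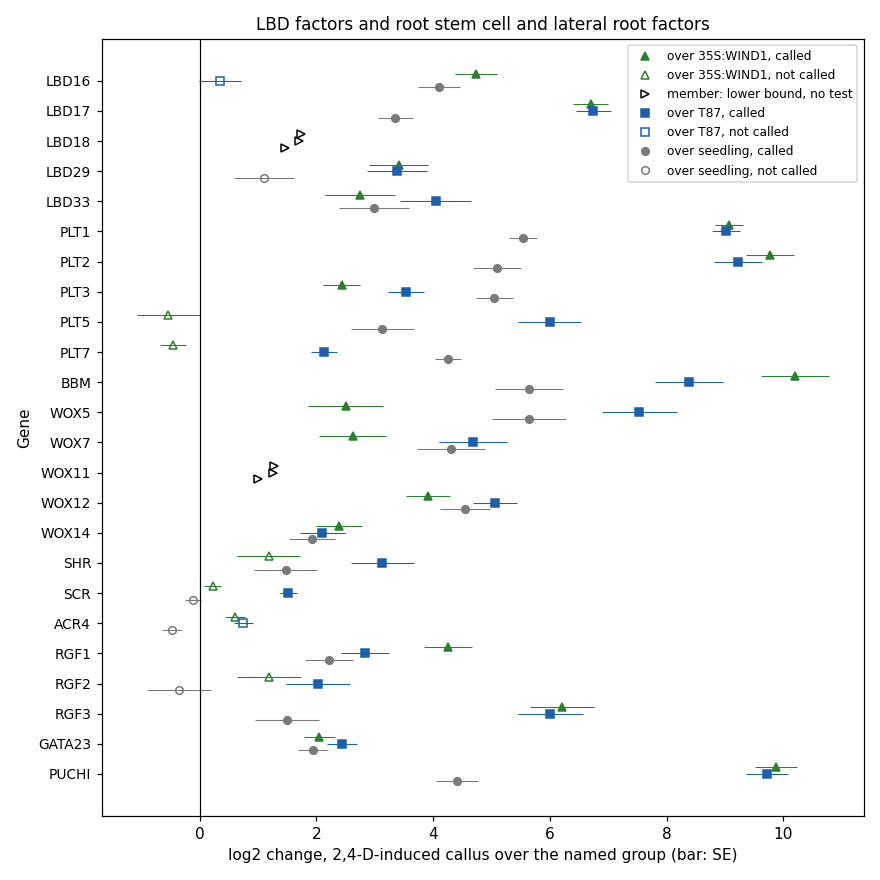
Log2 change of 2,4-D-induced callus over 35S:WIND1 callus (triangles), T87 callus (squares) and control seedlings (circles) for the LBD factors and the root stem cell and lateral root factors, with SE bars. Filled symbols are called and open ones are not. Black open triangles give the lower bounds of WOX11 and LBD18, which lie below most of the measured changes and carry no test.

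Auxin response genes were read in the same way. Among all genes tested, 18.6% were called higher over control seedlings, 11.7% over 35S:WIND1 callus and 19.2% over T87 callus. The shares called lower were 24.2%, 16.8% and 19.7%. Of 6 GH3 enzymes tested, 5 were called higher over each of the other groups and none lower, with median log2 changes of 2.78 over 35S:WIND1 callus, 4.88 over T87 callus and 4.99 over control seedlings. GH3.2 (AT4G37390) was higher than in control seedlings by 6.76 ± 0.35 SE (limma, adjusted p = 1.69e-07), and GH3.3 (AT2G23170) was higher by 6.71 ± 0.54 SE (adjusted p = 3.11e-06). GH3.17, which did not pass, had a log2 change of 0.76 ± 0.39 SE (adjusted p = 0.107). Of 12 Aux/IAA repressors, 7 were called higher and 3 lower than in control seedlings, 9 higher and none lower than in 35S:WIND1 callus, and 8 higher and 1 lower than in T87 callus. IAA30 (AT3G62100) was higher by 4.86 ± 0.68 SE than in control seedlings (adjusted p = 0.000132). IAA6 (AT1G52830) was at least 29.3-fold lower than in control seedlings. It entered the fit only through the seedling arrays, so this value carries no test.

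2,4-D is also a foreign compound, and enzymes of detoxification were listed for that reason. Of 19 xenobiotic response genes, 9 were called higher and 4 lower than in control seedlings, 3 higher and 5 lower than in 35S:WIND1 callus, and 10 higher and 3 lower than in T87 callus. Over all genes tested, the shares called higher were 18.6%, 11.7% and 19.2% in the same order, and those lower 24.2%, 16.8% and 19.7%. The tau-class glutathione transferases did not move as one. GSTU3 (AT2G29470) was at least 17-fold higher than in control seedlings (limma, adjusted p = 3.3e-06) and GSTU4 (AT2G29460) was higher by a log2 change of 4.47 ± 0.32 SE (adjusted p = 1.42e-06). GSTU3 was not called over 35S:WIND1 callus (log2 change 0.88, adjusted p = 0.142). GSTU5 was called lower over all 3 groups, with a log2 change of -1.67 over control seedlings (adjusted p = 0.00067). GSTU19, GSTU24 and GSTU25 were not called over control seedlings, with log2 changes of 0.5, 0.33 and -0.7. The cytochrome P450 gene CYP81D11 (AT3G28740) fell by 4.45 ± 0.55 SE (adjusted p = 5.72e-05). No gene of this list was a member of the set.

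Markers of other tissues were measured beside the members, and their part in the members' levels was not tested. Over control seedlings, 35S:WIND1 callus and T87 callus, 18.6%, 11.7% and 19.2% of all genes tested were called higher. The shares called lower were 24.2%, 16.8% and 19.7%. All 6 leaf photosynthesis genes were called lower than in every other group. Of 12 xylem genes, 1 was called higher and 9 lower than in control seedlings, 1 higher and 10 lower than in 35S:WIND1 callus, and 1 higher and 3 lower than in T87 callus. Of 7 root hair genes, 1 was called higher and 6 lower than in control seedlings and likewise over 35S:WIND1 callus, and 5 higher and none lower than in T87 callus. RHD6 (AT1G66470), which starts root hair formation, was the one higher, by 3.32 ± 0.42 SE over control seedlings (limma, adjusted p = 6.45e-05). The counts for 10 floral organ genes were 2 higher and 6 lower than in control seedlings, 2 and 4 over 35S:WIND1 callus, and 1 and 7 over T87 callus. PI (AT5G20240), a floral homeotic gene, was higher than in control seedlings by 7.44 ± 0.46 SE (adjusted p = 5.22e-07). Of 8 embryo and seed genes, 2 were called higher and 2 lower than in control seedlings, 3 and 1 over 35S:WIND1 callus, and 1 and 6 over T87 callus. LEC1 (AT1G21970), an embryo regulator, was higher than in control seedlings by 3 ± 0.35 SE and fell by 3.52 ± 0.35 SE relative to T87 callus (adjusted p = 3.47e-05 and 1.29e-05). Of 4 endosperm genes tested, none was called over control seedlings or 35S:WIND1 callus by limma (0 also at an unadjusted p below 0.05), and 1 was called higher and 3 lower than in T87 callus. FWA, MYB118 and RGE1 were detected in T87 callus alone and entered the fit only through it. Their lower calls follow from that filter, and against the other groups undetected signals were compared. AG, SHP2, LEC2, OLEO1, CRA1 and L1L also entered only through T87 callus. FWA, MYB118, RGE1 and PHE1, 4 of the 6 endosperm genes listed, were well above background on no array of 2,4-D-induced callus. With normexp many of these calls were lost. Over control seedlings, 35S:WIND1 callus and T87 callus, the floral organ genes then had 2, 1 and 1 higher and 0, 0 and 3 lower. The root hair genes had 1, 0 and 1 higher and 2, 2 and 0 lower. The xylem genes had 1 higher in each comparison and 5, 6 and 0 lower, and their median log2 change over T87 callus was 0.2, against -0.61 as processed. The embryo and seed genes had 1 higher in each and 0, 0 and 2 lower, and the endosperm genes had none higher and 0, 0 and 2 lower. The leaf photosynthesis genes had 6, 5 and 5 lower, the xenobiotic response genes 5, 2 and 7 higher and 3, 4 and 2 lower, and the Aux/IAA repressors 6, 6 and 7 higher and 1, 0 and 1 lower. The GH3 enzymes had 5 higher and none lower in each comparison.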

How the data were processed

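Cy3-labelled RNA of 12 samples was hybridised to one-colour arrays. The authors deposited scanner files with a linear intensity for each spot, made with Agilent Feature Extraction 9.1.3.1 per the submitters' processing notes. The authors' deposited series table, on a natural log scale, is the processed signal minus 1 constant per group, as found from the values, and served as an alternative. Why the constants differ is not known, and the table's direction is not stated. Its columns had medians of -2.4885, -2.6968 and -2.3415 (2,4-D-induced callus). Those of 35S:WIND1 callus were -1.9272, -1.5552 and -2.0237. Those of T87 callus were -2.5228, -2.4013 and -2.5702. Those of control seedlings were -1.7442, -2.0843 and -1.8061. No genome build of the array is given in the sources used here. Gene names come from the locus codes and a RefSeq table of TAIR10.1.

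On each array, 1417 control spots were left out, and 25 to 218 spots marked as outliers were left out of the signals. The outlier spots still counted for the detection flags and the 75th percentile. No spot was saturated. A probe with several spots was detected when at least 50% of them were flagged. Processed signals were divided by the array's 75th percentile, put on the log2 scale and averaged per probe. Probes detected on all 3 arrays of at least 1 group were tested with limma 3.58.1 in R 4.3.3, the brightest probe per gene, two-sided, with all 12 arrays, no block and Benjamini-Hochberg adjustment. The fit was tested on simulated data. The number of arrays limits the precision. Same-numbered arrays of 2,4-D-induced callus and the other groups correlated between -0.137 and 0.123 in their deviations from the group means.

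The members, the gene lists and the tests were chosen with earlier results of these data known. Named are members on a list, with a symbol or product, with the 5 largest bounds, in neighbouring loci, nearest the threshold or with the 3 largest SDs, the 3 brightest probes just outside, and called genes of the lists. Only part of the last are given, picked after their values were seen. Alternatives were normexp on the median signals (offset 50), quantile and median scaling, the deposited table, other filters and flags, a block for the slide, and 1 array fewer. A motif search was not run.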

Additional observations from a re-analysis of the deposited data

Results flagged for a closer look

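Probes without a locus code were not used in the comparisons above. Of 11242 such probes, 24 (0.213%) were well above background on every array of 2,4-D-induced callus and on no other array, which is why they are given here. The share was 0.217% for probes with a locus code. Of the 24, 17 are named by a genomic position and 7 carry other names. Their mean log2 signals in 2,4-D-induced callus lay between -5.81 and -0.84, with a median of -4.58. For 35S:WIND1 callus there were 21 such probes, for T87 callus 64 and for control seedlings 92.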

How the results depend on the processing

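The count of 57 probes was 23 with the scanner's weaker significance flag, 106 when 2 of the 3 arrays of 2,4-D-induced callus sufficed and 92 when 1 other array was allowed, each following from the rule itself. Leaving out each array in turn gave 58 to 94 probes, the highest without 2,4-D-induced callus replicate 2. Genes called numbered 9151 over control seedlings, 6075 over 35S:WIND1 callus and 8300 over T87 callus. They numbered 4759, 2514 and 4315 with normexp, whose cause was not tested, and 5988, 3628 and 5519 when a gene had to be detected on all 12 arrays, where fewer genes were tested. Median scaling moved the median of all genes to 0.9 over control seedlings and 0.39 over 35S:WIND1 callus, and the split to 9644 higher and 3802 lower, and 4012 and 3006, against 3975 and 5176, and 2493 and 3582. The deposited table gave a median of -0.58 and 1321 higher and 6245 lower over 35S:WIND1 callus. With the replicate block, which is also the slide block, 9146, 6023 and 8259 genes were called. The median level of the members was -3.83, -2.49 with normexp and 0.35 with median scaling, which sets another zero. The median measured log2 difference of the members was 4.35 over control seedlings, 4.42 over 35S:WIND1 callus and 4.64 over T87 callus. With normexp it was 0.47, 0.89 and 1.18 in the same order, and the cause of this drop was not tested. Over control seedlings it was 4.73 with quantile normalization and 5.09 with median scaling, and over 35S:WIND1 callus 3.77 with the deposited table. Of 1710 alternative bounds of members, 1351 counted as unchanged, so the bounds depend in part on the processing. Bounds under 0 numbered 2, both with normexp and both over control seedlings (AT1G52695 and AT5G62890). For 58 list genes, 3053 of 3162 alternatives left the call as it was, 93 lost it (57 with normexp) and 14 gained it. In 2 more the call was lost and the sign of the change turned round. These were, with normexp, LEC2 over 35S:WIND1 callus and CA1 over T87 callus, each at a log2 change of 0.04. Signals this near background limit the folds of all members.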
